A study of Mus musculus with 9 samples.

Results

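Visceral motor neurons (MNs) were set directly against skeletal MNs of the adult mouse spinal cord, with cholinergic interneurons left out. The members were the nuclei that the authors' annotation puts in the visceral or the skeletal class, 10667 of 34231 sequenced nuclei, of which 5613 were visceral (clusters V1 to V10) and 5054 skeletal (clusters S1 to S3). All mice carried *Chat-IRES-Cre* and the *Sun1-sfGFP* reporter, each on 1 of the pair of alleles (Chat-iCre:+/wt; SUN-SfGFP:+/wt), so that cells that had expressed *Chat* had a green nuclear envelope by which nuclei were sorted. The reporter records any past Cre activity, and the 16042 cholinergic nuclei were picked from the sorted ones by the authors. The 12 mice were 8 weeks old and untreated as far as the labels tell, and were pooled by 4: replicate 1 held 2 males and 2 females, replicate 2 was male and replicate 3 female. The cords of a pool were cut into 3 levels, labelled cervical, thoracic and lumbar/sacral, which gave 9 libraries, each of which supplied 1 visceral and 1 skeletal sum.

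Both kinds of MN release acetylcholine and send their axons out of the cord by the ventral root, but to different targets. Skeletal MNs lie in the ventral horn and drive muscle fibers directly through nicotinic synapses, and they include alpha MNs for force-producing fibers and gamma MNs for the fibers of the muscle spindle. Visceral MNs are preganglionic neurons of the lateral column that synapse on autonomic ganglion cells, mostly through thin and slowly conducting axons, and many of them also make nitric oxide and neuropeptides.

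A library held 374 to 1077 visceral and 166 to 979 skeletal nuclei, and the visceral sums held 2009840 to 9200835 corrected counts against 1894447 to 6910934 for the skeletal sums. The median total of a visceral nucleus was lower than that of a skeletal nucleus by 218 ± 240.5 corrected counts (SD of the within-library difference, n = 9; exact two-sided sign-flip test, p = 0.0391; lower in 7 of 9 libraries). Levels are given as CPM, the share of a sum scaled to 1000000, and fold changes are visceral minus skeletal on the log2 of CPM + 5, a scale that understates the change of genes with low values. After a fold change, ± is the standard error of limma's fit over the 9 paired libraries. Because the classes were drawn by the authors from the expression of these same nuclei, the p-values describe how steadily a difference between labelled classes recurred in the libraries and are not evidence for the classes themselves. The libraries of a replicate come from the same mice, sex cannot be told apart from the pool, and the p-values measure the spread between libraries.

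Some libraries stood apart from their labels. In the skeletal sum of cervical replicate 2, *Zeb2* was found in 41.6% of nuclei against 2.19 to 5.92% in the skeletal sums of the other 8 libraries, and *Tns1* in 68.7% against 88.4 to 97.4%. These values came from its 71 S2 nuclei, which had *Zeb2* in 92.96%, *Fbn2* in 85.9%, the interneuron gene *Pax2* in 64.8% and *Tns1* in 26.8%, whereas its 37 S1 and 58 S3 nuclei all had *Tns1*. A doublet caller marked none of these S2 nuclei. In addition, *Hoxc5* in the skeletal sums was at 82.5 CPM in cervical replicate 2 against 16.1 and 15.6 CPM in the other cervical libraries, and at 9.44 CPM in thoracic replicate 2 against 101.5 and 94.5 CPM in the other thoracic libraries. *Hoxa9* in the skeletal sums was at 9.04 CPM in cervical replicate 2 against 0.145 and 0 CPM in the other cervical libraries. In thoracic replicate 2 it was at 0.629 CPM against 11.9 and 15.8 CPM in the other thoracic libraries. The male cervical and thoracic libraries thus lay on the side of the other region in both genes. Why was not tested, and cervical and thoracic are used here only as labels. Without cervical replicate 2 the class comparison called 610 genes as higher in visceral and 729 as higher in skeletal MNs, and without its S2 nuclei alone 648 and 735, where all libraries gave 626 and 701.

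The class markers followed the labels in the other libraries. *Zeb2*, a transcriptional repressor and known visceral marker, stood at 190.4 to 579 CPM (median 415) in visceral and 3.17 to 54.6 CPM (median 7.699) in skeletal sums. Apart from cervical replicate 2, the highest skeletal sum was 14.3 CPM. In cluster V8 *Zeb2* was at 7.79 CPM, within the 4.99 to 20.3 CPM of the skeletal clusters. It was found in 35.2 to 44.9% of lumbar/sacral visceral nuclei and in 75.9 to 88.6% of those of the other libraries. *Fbn2*, which encodes the extracellular microfibril protein fibrillin 2, stood at 322 to 1267 CPM (median 450.3) against 13.7 to 34.8 CPM (median 20.02), and *Tns1*, which encodes the focal adhesion protein tensin 1, at 26.1 to 37.5 CPM (median 31.3) against 252 to 454 CPM (median 392.2). The study assigned the classes with the help of *Zeb2* and found *Fbn2* and *Tns1* as markers in these same nuclei, so the difference of all 3 is a check and no result. Of other neuronal markers, the interneuron genes summed to 23.6 to 49.6 CPM in visceral and 24.1 to 85.3 CPM in skeletal sums. GABAergic and glycinergic genes summed to 26.5 to 71.95 and 21.5 to 38.7 CPM, with *Gad2* called higher in visceral MNs (1.01 ± 0.23), and vesicular glutamate transporters to 3.19 to 10.01 and 4.22 to 11.99 CPM. Of the pan-neuronal genes, *Snap25* gave 0.43 ± 0.08 while *Rbfox1*, a splicing factor, was at 188 to 2553 CPM (median 548) in visceral and 4661 to 6994 CPM (median 5063) in skeletal sums (-3.13 ± 0.32, adjusted p = 2.70e-06). Markers of oligodendrocyte precursors summed to at most 4.57 CPM in either class. Oligodendrocyte markers summed to 37.4 to 63.3 CPM in visceral and 62.8 to 96.7 CPM in skeletal sums. Microglial markers summed to 21.9 to 108.5 and 28.2 to 147.8 CPM and astrocyte markers to 18.6 to 49.7 and 22.1 to 27.8 CPM. Endothelial markers summed to 2.94 to 23.9 and 4.96 to 40.9 CPM, and the part of these markers in the results was not tested.

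Of 10990 genes tested, 626 (5.7%) were higher in visceral and 701 (6.38%) higher in skeletal MNs at an adjusted p under 0.05 and a log2 fold change of at least 1, together 12.1%. An adjusted p under 0.05 alone was met by 64.2% of tested genes, and the median log2 fold change of all was 0.04. The difference had the same sign in all 9 libraries for 1290 of the 1327 called genes. It reached a log2 fold change of 3 for 40 genes higher in visceral and 48 higher in skeletal MNs, which lie farthest from the diagonal in the plot of mean levels.

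**Figure D1:**
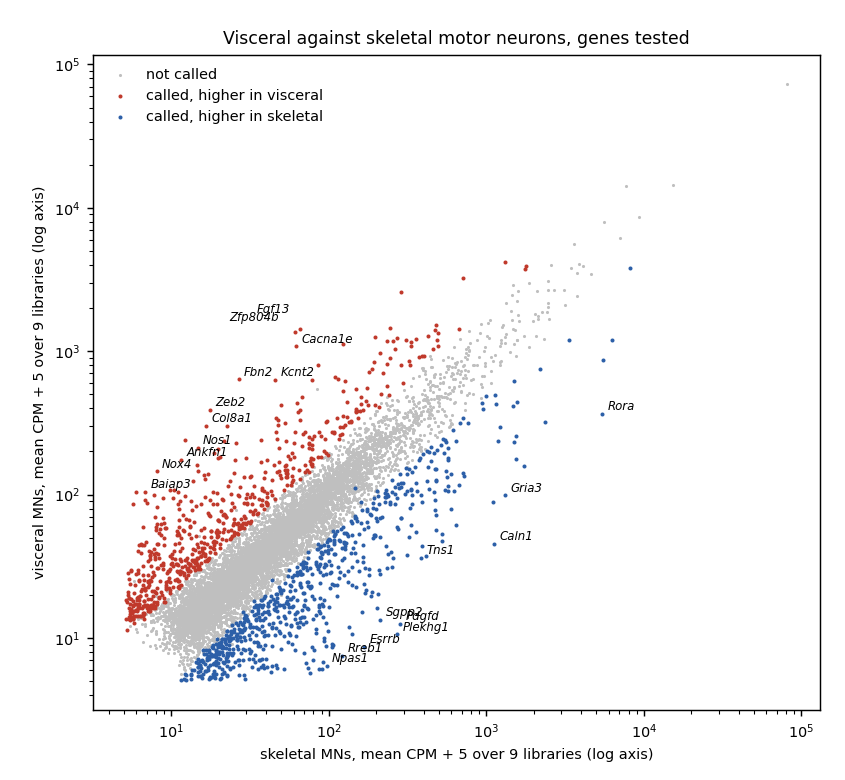
Mean CPM + 5 of each of the 10990 genes tested in skeletal MNs (horizontal, log axis) and visceral MNs (vertical, log axis), n = 9 libraries. Red points are the 626 genes called higher in visceral and blue points the 701 called higher in skeletal MNs, with the class markers *Zeb2*, *Fbn2* and *Tns1* and some of the largest differences named; both colors spread over the whole range of levels.

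The genes with the largest visceral excess included ion channels, a nitric oxide synthase and secreted proteins. *Fgf13*, an intracellular FGF homologue that binds voltage-gated sodium channels, stood at 780.0 to 2815 CPM (median 1183) in the visceral sums and 24.3 to 105 CPM (median 57.9) in the skeletal sums (log2 fold change 4.44 ± 0.23, adjusted p = 4.85e-09). *Cacna1e*, the pore of R-type calcium channels, stood at 751 to 1358 CPM (median 1093) against 25.8 to 196 CPM (median 38.3) (4.36 ± 0.21, adjusted p = 2.60e-09). *Kcnt2*, a sodium-activated potassium channel, stood at 364 to 927 CPM (median 601) against 6.86 to 103 CPM (median 40.9) (4.03 ± 0.28, adjusted p = 7.59e-08). The libraries of both classes were separate for all 3 genes, and the highest skeletal values of *Cacna1e* and *Kcnt2* were those of cervical replicate 2, as the plot by library shows. *Nos1*, neuronal nitric oxide synthase (chr5:117781032-117958840 of GRCm38, plus strand), stood at 164 to 254 CPM (median 217) against 4.49 to 22.4 CPM (median 7.87) (3.904 ± 0.12, adjusted p = 8.75e-11). It was found in 54.7% ± 9.43 of visceral and 7.41% ± 9.52 of skeletal nuclei (SD, n = 9; exact sign-flip test, p = 0.00391, the smallest that 512 flips allow), and in 44.7% and 3.901% after every nucleus was thinned to 4600 corrected counts.

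*Gap43*, a growth cone protein, and *Baiap3*, a Munc13-like protein of dense-core vesicle release, lay above every skeletal cluster in all visceral clusters. *Gap43* ran from 239 CPM in V9 to 368 CPM in V7 and from 12.1 to 20.4 CPM in the skeletal clusters (3.83 ± 0.16, adjusted p = 9.46e-10). *Cacng4*, an auxiliary subunit of AMPA receptors, stood at 65.2 to 99.3 CPM (median 80.97) against 0.339 to 5.501 CPM (median 1.73) (3.65 ± 0.09, adjusted p = 1.12e-11). Other leading genes were uneven among visceral clusters. *Col8a1*, a short-chain collagen, rose to 580.1 CPM in V10 but stood at 7.75 CPM in V8. The S2 mean was 20.2 CPM, with the S2 nuclei of cervical replicate 2 included. The skeletal sum of that library stood at 60.1 CPM, against 2.203 to 10.4 CPM in the other libraries. *Postn*, the matrix protein periostin, stood at 369 CPM in V3, 167 CPM in V7 and 122 CPM in V5 and at 1.08 CPM in V8. *Nox4*, a hydrogen peroxide-producing oxidase, was led by V4 at 535 CPM and was also low in V8 (4.02 CPM). *Zfp804b*, a zinc finger gene, ran from 87.9 CPM in V7 to 4233 CPM in V9, with S2 at 87.1 CPM, those S2 nuclei included. The remaining genes among the 15 with the largest visceral excess were *Ankfn1* (3.95 ± 0.10), *Cpa6*, a carboxypeptidase (3.76 ± 0.35), *Vwa5b1* (3.71 ± 0.12) and *Trabd2b*, a metalloprotease acting on Wnt ligands (3.696 ± 0.29).

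**Figure D2:**
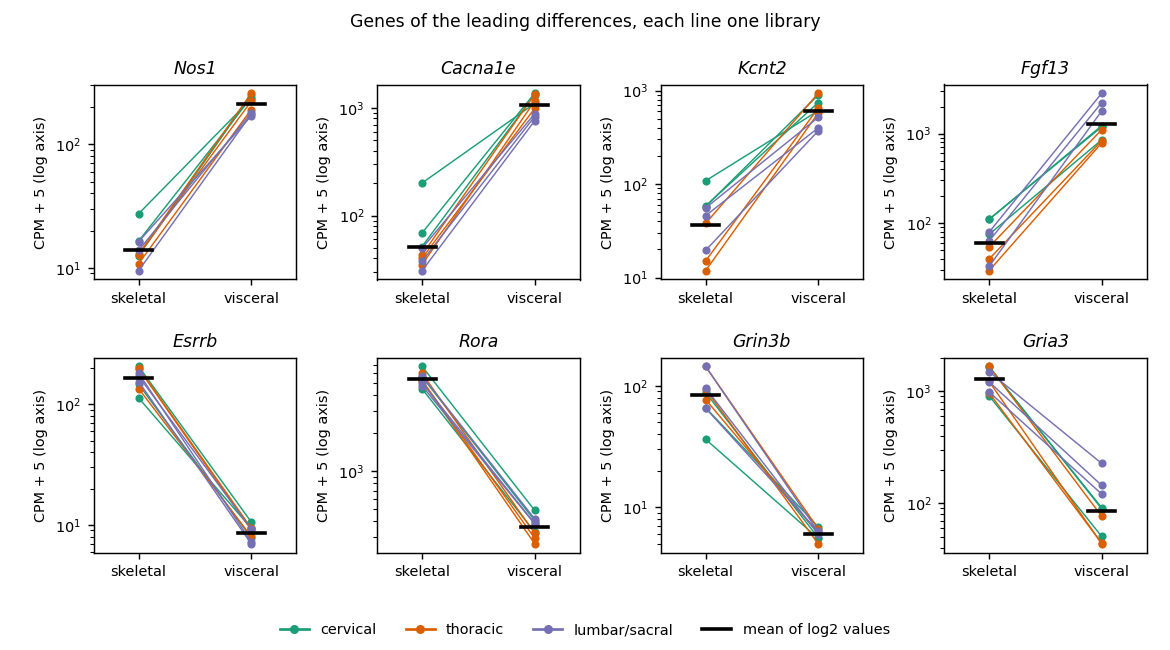
CPM + 5 (log axis) of 4 genes higher in visceral and 4 higher in skeletal MNs, each colored line joining the skeletal and the visceral sum of 1 of 9 libraries and black bars giving the mean of the log2 values. Every line rises in the upper and falls in the lower row, and the highest skeletal points of *Nos1*, *Cacna1e* and *Kcnt2* belong to cervical replicate 2.

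The 15 genes with the largest skeletal excess included a pair of nuclear receptors and a pair of glutamate receptor subunits, and *Plekhg1* (-4.68 ± 0.08), *Caln1* (-4.68 ± 0.11) and *Pdgfd* (-4.62 ± 0.23) led them. *Rora*, the orphan nuclear receptor ROR alpha, stood at 260.5 to 484 CPM (median 377) in visceral and 4500.1 to 6793 CPM (median 5259) in skeletal sums (-3.91 ± 0.08, adjusted p = 4.87e-12). *Esrrb*, the estrogen-related receptor beta, stood at 1.99 to 5.62 CPM (median 4.104) against 108 to 202 CPM (median 166) (-4.26 ± 0.09, adjusted p = 6.16e-12). Its relative *Esrrg* followed (-3.45 ± 0.07, adjusted p = 6.16e-12). *Gria3*, an AMPA receptor subunit, stood at 38.6 to 222 CPM (median 84.6) against 906 to 1667 CPM (median 1220.4) (-3.900 ± 0.21, adjusted p = 5.72e-09). *Grin3b*, an NMDA receptor subunit known from motor neurons, stood at 0 to 1.898 CPM (median 1.09) against 31.3 to 140.0 CPM (median 83.3) (-3.800 ± 0.17, adjusted p = 1.27e-09). In each of these genes the lowest skeletal library lay above the highest visceral one, which was so for 8.69% of tested genes, while the lowest visceral library lay above the highest skeletal one for 8.65%. In GRCm38 *Rora* lies at chr9:68653786-69388246, *Esrrb* at chr12:86361117-86521628 and *Gria3* at chrX:41400854-41678601.

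Several skeletal genes were uneven among the 3 skeletal clusters. *Dkk2*, a secreted Wnt inhibitor, stood at 188 CPM in S3, the cluster the authors call gamma, and at 1.06 and 0.978 CPM in S1 and S2, within the 0 to 2.69 CPM of the visceral clusters. *Htr1d*, a serotonin receptor, stood at 118 CPM in S1 and 112 CPM in S3 but 5.47 CPM in S2, the alpha cluster. *Plekhg1*, a guanine nucleotide exchange factor for small GTPases, was led by S3 (530.0 CPM, S2 23.8 CPM), *Rreb1*, a zinc finger transcription factor, by S1 (252 CPM, S3 42.03 CPM) and *Pdgfd*, a growth factor, by S2 (506 CPM, S3 57.1 CPM). *Caln1*, a calcium sensor, was even at 924 to 1239.7 CPM in the skeletal clusters and at most 83.04 CPM in the visceral ones. Others of the 15 were *Sgpp2*, a phosphatase of sphingosine 1-phosphate (-4.02 ± 0.13), *Npas1*, a bHLH-PAS factor (-3.88 ± 0.11), *Lgr5*, an R-spondin receptor (-3.83 ± 0.29), and *Plch1*, a phospholipase C (-3.66 ± 0.12).

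Over all called genes, every visceral cluster lay above every skeletal cluster for 369 of the 626 genes higher in visceral MNs (58.9%), and below every skeletal cluster for 455 of the 701 higher in skeletal MNs (64.9%). A gap of at least 2 times between all clusters of one class and all of the other was found for 94 and 104 genes, or 0.855 and 0.946% of those tested. All clusters thus lay in the direction of the class difference, by any margin, for most called genes, and only some did for the rest. A gap of 2 times was met by only 94 of the 626 and 104 of the 701 called genes. The map of leading genes by cluster shows genes that were even and genes that were uneven within a class. Since the clusters come from the same nuclei as the classes, these counts have no test. The S2 means include the S2 nuclei of cervical replicate 2, and the counts were not made without them.

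**Figure D3:**
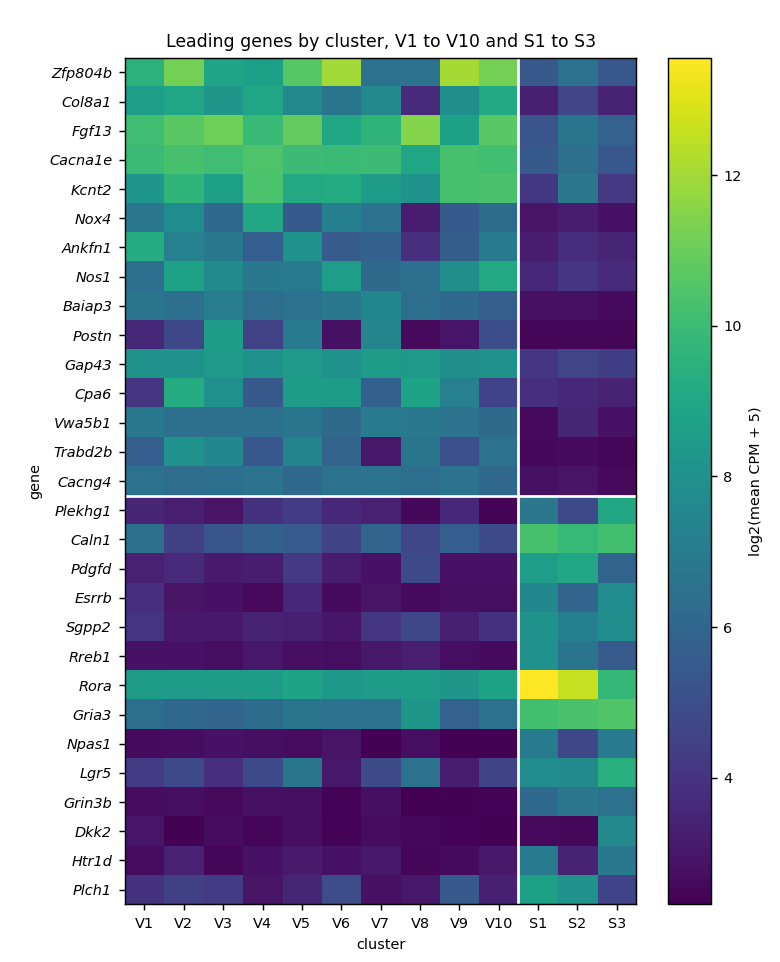
The 15 genes with the largest visceral excess (above the white horizontal line) and all but 1 of the 15 with the largest skeletal excess (below it) in the 10 visceral and 3 skeletal clusters, as log2 of the mean CPM + 5 over libraries with at least 10 nuclei of the cluster. *Gap43*, *Cacng4* and *Caln1* are even within their class, whereas *Postn* is high in 3 of the visceral clusters and *Dkk2* stands at 188 CPM in S3 and below 3 CPM elsewhere.

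Promoters of the called genes were searched for the letters CACCTG on both strands, the E-box that ZEB2 is known to bind, because *Zeb2* marks the visceral class. The 250 bases before a RefSeq start site held these letters in 22.4% of 442 matched visceral genes and 25.1% of 498 matched skeletal genes. The share was 18.63% of 8251 matched tested genes and 17.22% of the 32851 promoters searched. The letters stood in promoters of genes that differed in either direction. A gene with several starts counted once if any of them had a match. Windows around the match are shown for *Kcnt2* and *Baiap3*, higher in visceral MNs, and *Sgpp2* and *Htr1d*, higher in skeletal MNs, as examples of the same letters on both sides. Capitals mark the motif, and the sequence reads along the gene's strand, so that CAGGTG is the motif on the opposite strand.
Kcnt2: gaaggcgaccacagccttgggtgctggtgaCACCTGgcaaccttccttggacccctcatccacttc
Baiap3: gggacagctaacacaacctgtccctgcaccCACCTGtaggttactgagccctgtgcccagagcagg
Sgpp2: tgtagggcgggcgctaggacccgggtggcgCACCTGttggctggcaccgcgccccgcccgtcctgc
Htr1d: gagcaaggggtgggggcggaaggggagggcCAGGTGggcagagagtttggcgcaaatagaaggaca
In GRCm38.p6 the windows are chr1:140245487-140245552 (plus strand), chr17:25256440-25256505 (minus strand), chr1:78310256-78310321 (plus strand) and chr4:136423444-136423509 (plus strand). All 4 lie upstream of the gene in the GENCODE annotation, outside its exons and introns, and the motif ends 195, 105, 54 and 44 bases before the RefSeq start. TNAAGGTCA, the element of estrogen-related receptors, was found in 1.81% of visceral and 1.004% of skeletal genes against 0.848% of tested genes, and the element of ROR receptors, searched as AGGTCA preceded by T and by A 2 more bases before it, in 0 and 0.602% against 0.436%, with N for any base and both strands searched. These matches describe the sequence and say nothing of binding.

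Gene lists for motor neuron identity and function gave members on both sides. Each list was chosen with earlier results of these data known, and its counts are read against the 5.7 and 6.38% of all tested genes. Called genes were longer than tested genes, with a median of 74.6 kb (visceral) and 77.2 kb (skeletal) against 34.1 kb. The shares of all tested genes were not matched to a list for length. Of 29 transcription factors of motor neurons tested, 8 were higher in visceral and 8 in skeletal MNs, with a median log2 fold change of 0.00 against 0.04 for all genes. *Meis1* (2.45 ± 0.13, adjusted p = 8.70e-09) and *Ebf1* (2.35 ± 0.20, adjusted p = 5.43e-07) had the largest visceral excess, followed by *Pbx3*, *Foxp2*, *Tox*, *Nr2f2*, *Foxp1* (1.26 ± 0.08) and *Meis2*. On the skeletal side, *Esrrb* and *Esrrg* were followed by the nuclear factors *Nfia* (-2.47 ± 0.13) and *Nfib* (-2.07 ± 0.24), *Lhx4*, *Onecut2*, *Zfhx3* and the LIM homeobox gene *Isl1* (-1.24 ± 0.25, adjusted p = 8.83e-04), which all motor neurons use in development. The visceral clusters were split for *Isl1*, with 116 CPM in V8, 58.5 in V2, 61.2 in V4 and at most 9.18 in the others. Its skeletal clusters held 59.9 to 68.8 CPM. *Foxp1* stood at 95.5 to 132 CPM in V1, V6, V7 and V10 and at 160 to 549 CPM in the other visceral clusters, against 110 to 133 CPM in the skeletal ones. *Zfhx3* was at an adjusted p of 0.0376 and lost the call whenever 1 replicate or cervical replicate 2 alone was left out, at -1.26 to -1.52. Of 8 *Hox* genes tested, limma called none. At an adjusted p under 0.05 alone 3 were lower and 0 higher in visceral MNs, and at an unadjusted p under 0.05 these were 3 and 2.

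*Chat* and *Slc5a7*, for making acetylcholine and taking up choline, differed by less than the fold threshold. The anchors of acetylcholinesterase lay on opposite sides in the class sums. *Slc18a3*, the vesicular acetylcholine transporter, was not among the features with values. *Chat*, the synthetic enzyme, stood at 171 to 255 CPM (median 204) in visceral and 224 to 327 CPM (median 288) in skeletal sums (-0.45 ± 0.07). *Slc5a7*, the choline transporter, stood at 257 to 491 CPM (median 334) and 299 to 416 CPM (median 365) (-0.08 ± 0.08), and neither passed the fold threshold. *Ache*, acetylcholinesterase, gave 0.34 ± 0.06. *Prima1*, which anchors acetylcholinesterase in membranes of neurons, stood at 102 to 490.2 CPM (median 243) against 39.4 to 91.1 CPM (median 62.1) (1.86 ± 0.19, adjusted p = 2.22e-06). In V8, however, it stood at 3.33 CPM, below the 21.8 to 109 CPM of the skeletal clusters. *Colq*, the collagen tail that anchors the esterase at the neuromuscular junction, stood at 0 to 3.21 CPM (median 0.978) against 12.1 to 24.9 CPM (median 20.02) (-1.97 ± 0.11, adjusted p = 8.40e-09). Its skeletal level was carried by S1 (56.9 CPM), with 3.74 CPM in the alpha cluster S2 and 4.55 CPM in the gamma cluster S3. *Slc10a4*, a vesicle protein of cholinergic neurons, was also higher in skeletal MNs (-1.25 ± 0.12, adjusted p = 1.08e-06), so that 3 of 7 tested members were called.

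Of 27 tested genes of the axonal cytoskeleton, *Stmn1*, a microtubule-destabilizing protein, was higher in visceral MNs (1.15 ± 0.07, adjusted p = 3.44e-08) and *Nefh* and *Nefm* in skeletal MNs, apart from the class marker *Tns1*, which is in the list too and counts here as a check. The heavy and medium neurofilament chains stood at 39.9 to 82.9 CPM (median 68.6) and 219 to 581 CPM (median 439) in skeletal and 11.8 to 34.2 CPM (median 18.4) and 96.6 to 339 CPM (median 199.9) in visceral sums (-1.596 ± 0.09 and -1.08 ± 0.08), while the light chain *Nefl* gave -0.26 ± 0.05 and *Prph*, peripherin, -0.67 ± 0.19. *Nefm* fell short of the fold threshold without the lumbar/sacral libraries (-0.98) and with pools as replicates (-0.997). Of 9 perineuronal net genes, *Bcan* (-2.68 ± 0.12, adjusted p = 1.53e-09), *Hapln4* (-1.21 ± 0.12) and *Acan* (-1.12 ± 0.11), which encode brevican, a link protein and aggrecan, were higher in skeletal MNs, and *Vcan*, versican, in visceral MNs (1.12 ± 0.17; without replicate 1 0.97, short of the fold threshold). Among 23 collagens, 10 were higher in visceral and 5 in skeletal MNs: *Col8a1*, all 3 collagen VI chains (*Col6a1* 1.96 ± 0.16, *Col6a2* 1.89 ± 0.14, *Col6a3* 2.78 ± 0.19), *Col9a2*, *Col11a1*, *Col25a1*, *Col2a1*, *Col5a2* and *Col18a1* against *Col27a1* (-2.43 ± 0.11), *Col26a1* (-1.904 ± 0.13), *Col19a1*, *Col23a1* and *Col4a5*. In all 15 of 23 tested collagens were called, where 12.1% of all tested genes were, a share not matched for gene length.

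**Figure D4:**
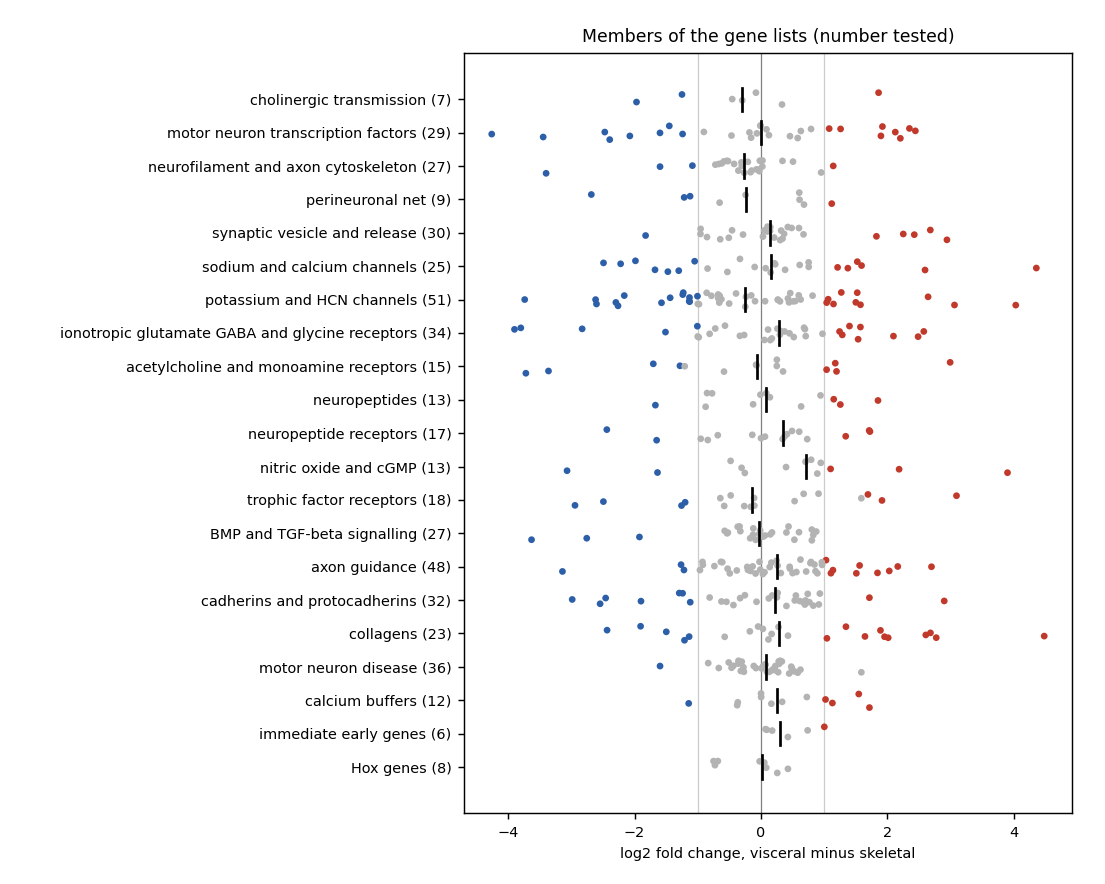
Log2 fold change, visceral minus skeletal, of every tested member of 21 gene lists (number tested in brackets), with vertical bars at the list medians and grey lines at -1 and 1. Red and blue points were called higher in visceral and in skeletal MNs; most medians lie near 0 while members reach 4.49 (*Col8a1*) and -4.26 (*Esrrb*).

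Proteins of transmitter release included close relatives on opposite sides. Of 30 tested genes, 5 were higher in visceral MNs and 1 in skeletal MNs. *Cplx2* (complexin 2) stood at 39.8 to 61.7 CPM (median 56.1) against 2.22 to 6.76 CPM (median 4.07) (2.68 ± 0.08, adjusted p = 8.75e-11). *Cplx1*, complexin 1, which clamps and primes the same fusion complex, stood at 21.9 to 45.7 CPM (median 36.1) against 109.6 to 168 CPM (median 122) (-1.82 ± 0.07, adjusted p = 3.47e-10). *Stx1a*, syntaxin 1A, a plasma membrane SNARE, stood at 60.98 to 107 CPM (median 75.7) against 3.76 to 9.501 CPM (median 6.24) (2.95 ± 0.12, adjusted p = 6.58e-10). *Syt9*, *Unc13b* and *Unc13c* were the others on the visceral side, and *Vamp1*, a vesicle SNARE, gave -0.96 ± 0.07, just short of the fold threshold.

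Voltage-gated channels showed the same pattern of relatives on opposite sides. Of 25 tested sodium and calcium channel genes, 6 were higher in visceral and 7 in skeletal MNs. *Scn3a* (1.53 ± 0.07), *Scn9a* (1.59 ± 0.35; without replicate 1 0.96) and the auxiliary *Scn3b* (2.599 ± 0.09, adjusted p = 1.39e-10) were higher in visceral MNs, and *Scn1a* (-1.99 ± 0.10, adjusted p = 4.85e-09) and *Scn4b* in skeletal MNs. Among T-type calcium channels *Cacna1g* was higher in visceral and *Cacna1h* (-2.22 ± 0.09, adjusted p = 8.79e-10) in skeletal MNs, where the auxiliary *Cacna2d3* (-2.49 ± 0.09), *Cacna2d2* and the L-type *Cacna1d* were also higher. Of 51 tested potassium and HCN channel genes, 10 were higher in visceral and 14 in skeletal MNs. The visceral side included *Kcnt2*, *Kcnh7* (3.07 ± 0.14, adjusted p = 2.35e-09), *Kcnd3*, an A-type channel (2.65 ± 0.12, adjusted p = 1.42e-09), its partners *Kcnip4* and *Kcnip3*, *Kcna4*, *Kcnb2*, *Kcnq5* and *Kcnn3*. The skeletal side included *Kcng4* (-2.62 ± 0.08, adjusted p = 9.49e-11), the low-threshold *Kcna1* (-2.602 ± 0.12, adjusted p = 1.44e-09) and *Kcna2* with their beta subunits *Kcnab2* and *Kcnab3*, the fast *Kcnc1*, the leak channels *Kcnk1*, *Kcnk3*, *Kcnk9* and *Kcnk13*, and *Kcnh1*, *Kcnip1* and *Kcnj3*.

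Among 34 tested ionotropic receptor subunits, 8 were higher in visceral and 5 in skeletal MNs. Glycine receptors differed by subunit: *Glra1*, the adult alpha subunit, stood at 26.8 to 103 CPM (median 77.1) in visceral and 391 to 538 CPM (median 481) in skeletal sums (-2.83 ± 0.16, adjusted p = 8.70e-09). *Glra2* stood at 58.2 to 162 CPM (median 88.9) and 8.14 to 25.5 CPM (median 13.9) (2.49 ± 0.19, adjusted p = 1.36e-07) and *Glra3* at 35.4 to 87.5 CPM (median 46.6) and 9.16 to 24.4 CPM (median 11.2) (1.54 ± 0.10, adjusted p = 3.06e-08). The shared beta subunit *Glrb* was higher in skeletal MNs. For AMPA receptors *Gria1* was higher in visceral MNs (1.403 ± 0.11, adjusted p = 2.81e-07) and *Gria3* in skeletal MNs, and for NMDA receptors *Grin2a* and *Grin3b* did likewise. The kainate receptor *Grik1* (2.58 ± 0.24, adjusted p = 9.35e-07) and the GABA-A subunits *Gabrq* and *Gabrg3* were higher in visceral MNs, and *Gabra5* in skeletal MNs.

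Receptors for modulators gave 4 called genes on each side of 15 tested for acetylcholine and monoamines. The muscarinic *Chrm3*, coupled to Gq, stood at 42.7 to 673 CPM (median 98.7) against 8.14 to 29.9 CPM (median 14.99) (2.996 ± 0.33, adjusted p = 4.86e-06). The Gi-coupled *Chrm2* stood at 112 to 451 CPM (median 272) against 446 to 785 CPM (median 612) (-1.28 ± 0.21, adjusted p = 1.37e-04). It fell short of the fold threshold without the lumbar/sacral libraries (-0.78), with equal cluster weights (-0.988) and with pools as replicates (-0.999). Serotonin receptors *Htr1d*, *Htr1f* (-3.36 ± 0.15, adjusted p = 1.28e-09) and *Htr2a* were higher in skeletal MNs and *Htr2c* in visceral MNs (1.198 ± 0.21, adjusted p = 3.19e-04), where *Adra2a*, an inhibitory adrenergic receptor, and *Drd2*, a dopamine receptor, were also higher. In lumbar/sacral libraries, however, *Htr2c* stood at 365 to 549 CPM in visceral and 335 to 434 CPM in skeletal sums. V7, V8 and V9 held 229 to 277 CPM of it, within the 211 to 368 CPM of the skeletal clusters. Of 13 neuropeptide genes, *Adcyap1* (PACAP, 1.85 ± 0.17, adjusted p = 7.20e-07), *Penk* (enkephalin, 1.26 ± 0.36, adjusted p = 0.00797) and *Cartpt* (1.15 ± 0.26, adjusted p = 0.00195) were higher in visceral and *Calcb*, a calcitonin gene-related peptide, in skeletal MNs (-1.67 ± 0.10, adjusted p = 2.75e-08). *Penk* rested on 1 cluster, V8, with 445 CPM against at most 36.1 CPM in the other visceral clusters, and without V8 its fold change was 0.54, as that of *Cartpt* was 0.62. Receptors for substance P (*Tacr1*, 1.73 ± 0.30, adjusted p = 2.70e-04), relaxin (*Rxfp1*) and neuropeptide Y (*Npy1r*, 1.34 ± 0.16) were higher in visceral and those for VIP and PACAP (*Vipr2*, -2.44 ± 0.20, adjusted p = 2.93e-07) and natriuretic peptides (*Npr3*, -1.65 ± 0.19) in skeletal MNs.

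In the nitric oxide and cGMP list, 5 of 13 tested genes were called. *Nos1*, *Prkg1*, the cGMP-dependent kinase (2.19 ± 0.12, adjusted p = 6.81e-09), and *Ddah1*, which degrades an inhibitor of nitric oxide synthases (1.104 ± 0.07, adjusted p = 1.96e-08), were higher in visceral MNs. *Nos1ap*, an adaptor protein of neuronal nitric oxide synthase, stood at 44.3 to 60.2 CPM (median 51.8) against 327 to 545 CPM (median 488) and was higher in skeletal MNs (-3.07 ± 0.06, adjusted p = 4.77e-12), as was *Pde9a*, a cGMP phosphodiesterase (-1.64 ± 0.14). Enzyme and adaptor thus lay on opposite sides in all 9 libraries.

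Receptors for trophic factors lay on both sides, GDNF family receptors among them. *Ret*, the signalling receptor of the GDNF family, stood at 6.22 to 42.8 CPM (median 10.4) in visceral and 94.3 to 179 CPM (median 149.6) in skeletal sums (-2.94 ± 0.23, adjusted p = 2.30e-07). Its partners *Gfra1* (-2.49 ± 0.21, adjusted p = 4.55e-07) and *Gfra2* were higher in skeletal MNs, while *Gfra3*, the partner for artemin, was higher in visceral MNs (1.69 ± 0.12, adjusted p = 6.13e-08). Among visceral clusters *Ret* was highest in V8 (73.8 CPM, S1 82.4 CPM). *Alk* (3.097 ± 0.13, adjusted p = 7.96e-10) and *Met*, the receptor of hepatocyte growth factor (1.92 ± 0.10, adjusted p = 6.85e-09), were higher in visceral MNs, and *Lifr* in skeletal MNs, so that 7 of 18 tested genes were called. In BMP and TGF-beta signalling 3 of 27 were called by limma, all higher in skeletal MNs, and at an adjusted p under 0.05 alone 8 were higher in visceral and 9 in skeletal MNs. The 3 were *Bmpr1b* (-3.63 ± 0.11, adjusted p = 6.35e-11), *Tgfbr2* (-2.76 ± 0.13, adjusted p = 2.29e-09) and *Ltbp1* (-1.92 ± 0.27).

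Of 48 axon guidance genes, 9 were higher in visceral MNs, led by *Unc5d* (2.701 ± 0.25, adjusted p = 1.05e-06) and *Slit1* (2.17 ± 0.17, adjusted p = 1.73e-07) and including 5 semaphorins, and 3 in skeletal MNs, *Epha4* (-3.14 ± 0.12, adjusted p = 3.67e-10), *Sema6a* and *Robo1*. *Epha4*, a receptor for ephrins, stood at 2.95 to 11.8 CPM (median 5.22) against 62.9 to 138 CPM (median 97.1). Of 32 cadherins and relatives, *Cdh8* (2.903 ± 0.32, adjusted p = 5.43e-06) and *Cdh6* (1.72 ± 0.23) were higher in visceral and *Cdh20* (-2.99 ± 0.18, adjusted p = 1.53e-08), *Fat3* (-2.54 ± 0.06, adjusted p = 1.16e-11), *Dchs2*, *Cdh22*, *Pcdh17*, *Cdh24* and *Pcdh9* in skeletal MNs. Among 12 calcium-binding proteins *Hpcal4* (1.72 ± 0.12), *Hpcal1* (1.55 ± 0.18), *Necab1* (without V8 0.71 and with pools as replicates 0.95, both short of the fold threshold) and *Hpca* (without replicate 1 0.95, without cervical replicate 2 0.98, likewise short of it) were higher in visceral MNs and *S100b* in skeletal MNs (-1.14 ± 0.10).

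Of 36 genes linked to motor neuron disease in people, *Nefh* was the one that passed both thresholds. At an adjusted p under 0.05 alone 15 were higher in visceral and 11 in skeletal MNs, where 35.1% and 29.2% of all genes were. *Sqstm1* (0.63 ± 0.06) and *Tfg* (-0.83 ± 0.05) were the farthest from 0 among those that met the p and not the fold. *Erbb4*, the neuregulin receptor, had a log2 fold change of 1.59 ± 0.66, adjusted p = 0.0516. Of 6 immediate early genes, *Fosl2* was called (1.005 ± 0.11) and fell short of the fold threshold without cervical replicate 2 (0.99).

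The class difference was next compared between lumbar/sacral cord and the mean of the cervical and thoracic libraries, which asks whether visceral and skeletal MNs differed alike along the cord. It differed for 281 genes (2.56%), with 170 (1.55%) higher and 111 (1.01%) lower in lumbar/sacral cord, and 139 of these were among the 1327 genes called between the classes (10.5%). Cluster V8 held 463 of 1500 lumbar/sacral visceral nuclei and 4 of 4113 others, and without it 93 genes were higher and 63 lower. Other visceral clusters were scarce in lumbar/sacral cord. V9 had 1 to 2 nuclei per lumbar/sacral library against 17 to 63 in the rostral ones. V6 had 7 to 13 against 35 to 169, and V1 had 23 to 26 against 71 to 182. The sums of the regions thus differed in cluster mix, and a change within clusters was not tested.

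*Erbb4* showed the largest such change. In visceral MNs it stood at 104 ± 28.2 CPM in the libraries labelled cervical, 68.4 ± 30.2 in those labelled thoracic and 1445 ± 404 in lumbar/sacral ones (mean ± SD, n = 3 each). In skeletal MNs it stood at 122 ± 62.6, 65.3 ± 19.1 and 48.6 ± 25.4 CPM. Its class difference was -0.04 in the rostral libraries and 4.84 in lumbar/sacral cord (difference 4.88 ± 0.22, adjusted p = 2.59e-07), and leaving out V8 gave 5.20. Its skeletal libraries overlapped between the regions, at 48.2 to 167 CPM rostrally and 23.1 to 73.8 CPM in lumbar/sacral cord. The visceral level was far higher in lumbar/sacral cord. *Rxfp1*, a relaxin receptor, also had its far higher visceral level there, with 4.59 ± 0.815, 3.62 ± 1.67 and 223 ± 69.9 CPM in visceral and 2.99 ± 0.7204, 1.36 ± 0.838 and 5.07 ± 0.534 CPM in skeletal MNs (difference 4.104 ± 0.21, adjusted p = 5.80e-07; without V8 3.25).

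A pair of zinc finger homeobox genes reversed. *Zfhx3* was lower in visceral MNs in the rostral libraries (log2 difference -2.81) and higher in lumbar/sacral cord (1.28; difference 4.09 ± 0.17, adjusted p = 2.32e-07). *Zfhx4* went from -1.24 to 2.75 (3.99 ± 0.25, adjusted p = 1.98e-06). *Zfhx3* stood at 26.2 ± 10.6, 12.3 ± 1.17 and 279 ± 52.6 CPM in visceral and 165 ± 18.3, 148 ± 27.5 and 113 ± 26.1 CPM in skeletal MNs. *Adra1a*, an alpha-1 adrenergic receptor, also turned from -2.36 to 1.11 (3.48 ± 0.41, adjusted p = 2.39e-04). Without V8 these 3 differences were 3.17, 2.37 and 2.54. *Hs6st2*, a heparan sulfate sulfotransferase, went from -0.35 to 3.25 (3.602 ± 0.24, adjusted p = 3.43e-06; without V8 2.21). Opposite signs in the rostral and lumbar/sacral libraries were found for 111 of the 281 genes, of which 7 were at least 1 from 0 each way.

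*Penk* and *Sst*, the genes of enkephalin and somatostatin, were nearly equal between the classes rostrally (0.40 and -0.37) and higher in visceral MNs in lumbar/sacral cord (2.98 and 2.66), where V8 held 445 and 385 CPM. In the other direction, *Mme*, the peptidase neprilysin, fell from a class difference of 3.55 to 1.68 (-1.88 ± 0.27, adjusted p = 0.00103), *Hpgds*, a prostaglandin D synthase, from 3.59 to 1.57 (-2.02 ± 0.41, adjusted p = 0.0103) and *Aldh1a1*, a retinaldehyde dehydrogenase, from 2.75 to 0.87 (-1.89 ± 0.26, adjusted p = 7.92e-04). *Dach1*, a transcriptional cofactor (0.36 to -1.91; -2.27 ± 0.15, adjusted p = 3.43e-06), *Galnt13*, a glycosyltransferase (0.59 to -1.33), and *Slc4a4*, a bicarbonate cotransporter (1.09 to -0.72), changed sign. *Hpgds* lost its call without V8 (-1.68), with equal cluster weights (-1.36) and without replicate 3 (-1.95). Among visceral clusters, *Galnt13*, *Mme* and *Aldh1a1* were highest in V9 (3447, 420 and 194 CPM). *Dach1* was highest in V6 (824 CPM), *Hpgds* in V1 (357 CPM) and *Slc4a4* in V10 (498 CPM). V9, V6 and V1 were scarce in lumbar/sacral cord, and the part of this in the falls was not tested.

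**Figure D5:**
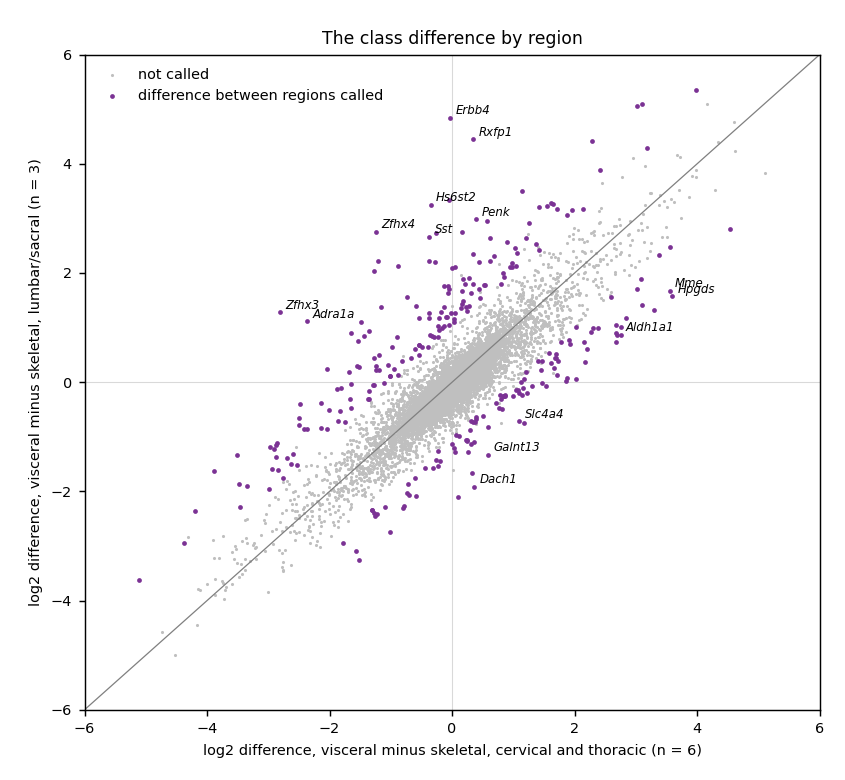
The class difference (log2, visceral minus skeletal) of each tested gene in the 6 cervical and thoracic libraries (horizontal) and the 3 lumbar/sacral libraries (vertical), with a line of equality. Purple points are the 281 genes for which both differ; *Erbb4*, *Rxfp1*, *Zfhx3* and *Zfhx4* lie above the line, and *Dach1*, *Mme* and *Aldh1a1* below it.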

How the data were processed

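Nuclei were sorted from the spinal cords of 12 mice and sequenced with the 10x Chromium 3' assay. Reads were mapped by the authors to mm10 (GRCm38, introns included) in Cell Ranger 3.1.0, and nuclei were filtered, clustered and normalized with SCTransform in Seurat. The deposited values are a score: corrected counts that SCTransform predicts for nuclei of equal depth, whole numbers but not molecules, for 21457 features in 16042 cholinergic nuclei. The authors' use of DESeq2 was not repeated, and no count model was applied. Such a correction evens out depth within a library and leaves the libraries at different totals, with medians of 4742 to 16166.5 corrected counts per visceral nucleus and 4923 to 15902.5 per skeletal nucleus.

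Class, cluster and library of each nucleus were taken from the authors' annotation. Corrected counts were summed per library and class and scaled to CPM. Differences were fitted with limma 3.58.1 (R 4.3.3), with a trend, on log2(CPM + 5), with a term for the library, over genes that reached 10 CPM in 3 or more of the 18 sums. Genes were called at a Benjamini-Hochberg adjusted p under 0.05 and a log2 fold change of at least 1. For the regions, limma was fitted to the 9 within-library differences. Replicate numbers mark the same pool of mice, and the library term pairs both classes. Deviations of same-numbered libraries of different regions correlated at -0.14 to 0.34 and those of differently numbered ones at -0.36 to 0.35. The ranges overlap, so this check does not settle the pairing. Doublets were called with Scrublet (scanpy 1.11.5), which marked 138 of 10667 nuclei (1.29%), and were kept except in an alternative. Among the libraries, 19 barcode sequences occurred more than once. Cluster means use libraries with at least 10 nuclei of the cluster, and the S2 means include the 71 S2 nuclei of cervical replicate 2. On simulated data an adjusted p under 0.05 alone recovered 100% of genes changed 2-fold between the classes (10420 genes tested). Between regions it recovered 87% (10465 tested). Of all genes that passed this p, 3.38% (classes) and 8.78% (regions) had not been changed, and 0% when the fold threshold was added. Recovery under the full call rule, with the fold threshold, was not counted. The simulation changed few genes, none of them near the lowest levels tested. It gave both classes of a library the same library effect and all genes the same dispersion. Apart from the changes put in, no class difference varied between libraries there, so these shares do not measure error in the real data.

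Named genes were the 15 with the largest difference each way among called genes with the same sign in all 9 libraries, a mean of at least 50 CPM in the higher class and a name other than Gm or Rik, the class markers *Zeb2*, *Fbn2* and *Tns1* left out; for each list the 2 tested members at each end, and every called one where 5 or fewer were; and 6 genes each way for the regions. *Gria1*, *Glra1*, *Glra3*, *Chrm2*, *Kcna1*, *Kcnd3*, *Gfra3*, *Scn1a*, *Scn3a*, *Scn9a*, *Nefl*, *Prph*, *Col6a1*, *Col6a2*, *Slc5a7*, *Chat*, *Foxp1*, *Sst*, *Isl1*, *Rbfox1*, *Nfia*, *Nfib*, *Hoxa9* and *Snap25* were added after their values were seen, and other called list members are named without values. Some members of the lists are not reported here by name. The members, lists and tests were chosen with earlier results of these data known. Coordinates are from GENCODE M21 and promoters from RefSeq, both GRCm38. Alternatives were another scaling, pseudocounts of 1 and 20, other filters, no library term, pools as replicates, equal cluster weights, and leaving out doublets, V8, the lumbar/sacral libraries or each replicate. Leaving out cervical replicate 2, its S2 nuclei, or both male rostral libraries was added after the data were seen. Other work used Python 3.11.15, numpy 2.4.6, pandas 2.3.3 and scipy 1.17.1.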

Additional observations from a re-analysis of the deposited data

Results flagged for a closer look

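Of 149 named genes examined for a library apart from the other 8 in the visceral minus skeletal difference (Dixon's criterion, which chance meets in about 1 in 20 cases), 4 had one. In cervical replicate 2 the log2 difference was 2.41 for *Gap43* against 3.57 to 4.46 in the others, 2.45 for *Cacna1e* against 4.15 to 5.04, and 1.25 for *Prkg1* against 2.04 to 2.72. Without the S2 nuclei of that library they were 4.34, 5.92 and 1.505. *Cdh6* was at 3.52 in thoracic replicate 3 against 0.80 to 2.17 in the others.

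The class difference changed between lumbar/sacral cord and the rostral libraries for 38 named genes (limma on the within-library differences, adjusted p under 0.05 and a change of at least 1), where 2.56% of all tested genes changed. Of these 38, the 6 with the highest and the 6 with the lowest change were named by this contrast itself. Higher in lumbar/sacral cord were *Erbb4* (4.88), *Rxfp1* (4.10), *Zfhx3* (4.09), *Zfhx4* (3.99), *Hs6st2* (3.60), *Adra1a* (3.48), *Sst* (3.03), *Penk* (2.58), *Rbfox1* (2.27), *Chrm3* (2.14), *Trabd2b* (2.03), *Cpa6* (2.00), *Ltbp1* (1.72), *Isl1* (1.71), *Ret* (1.63), *Cartpt* (1.60), *Hoxa7* (1.53), *Pdgfd* (1.49), *Cdh8* (1.47), *Gria3* (1.44), *Fgf13* (1.37), *Gfra1* (1.36), *Hoxa9* (1.22), *Ebf1* (1.21), *Npr3* (1.20) and *Glra2* (1.04). *Rbfox1*, *Ret*, *Isl1*, *Gria3*, *Gfra1*, *Pdgfd*, *Npr3* and *Ltbp1* were lower in visceral MNs both rostrally and in lumbar/sacral cord, so that for them a positive value is a smaller gap between the classes. Lower in lumbar/sacral cord were *Dach1* (-2.27), *Hpgds* (-2.02), *Galnt13* (-1.93), *Aldh1a1* (-1.89), *Mme* (-1.88), *Slc4a4* (-1.81), *Nox4* (-1.73), *Nfib* (-1.51), *Chrm2* (-1.49), *Htr2c* (-1.41), *Prph* (-1.30) and *Prima1* (-1.30).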

How the results depend on the processing

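With all 9 libraries, 626 genes were higher in visceral and 701 in skeletal MNs, and 170 and 111 had a higher and a lower class difference in lumbar/sacral cord. With a pseudocount of 20 these counts were 309, 358, 107 and 53, and with at least 10 corrected counts required in every sum the class counts were 377 and 437 and the lower regional count 72. A pseudocount of 1 gave 170 for the lower regional count, and equal weight for each cluster gave 68. Without V8 the regional counts were 93 and 63. Leaving out 1 replicate at a time, or the male rostral libraries, gave 583 to 633 and 667 to 725 between the classes. Between the regions leaving out 1 replicate gave 111 (without replicate 1) to 164 and 84 to 133. Leaving out cervical replicate 2 gave 178 and 124 between the regions. No other setting moved these counts by over 1.5 times. Of the 1327 genes, 1305 were called without the library term, and 667 with a pseudocount of 20. With the replicate block between the regions 175 and 112 were called, and the pairing changed no other count by over 1.5 times. Within a region the classes differed by 556 and 548 genes (cervical), 616 and 703 (thoracic) and 584 and 683 (lumbar/sacral); without replicate 2 these were 324 and 435, 404 and 460, and 379 and 464, from 2 libraries each.

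The 117 named genes called between the classes kept their sign in every setting, and the call in 1868 of 1921 cases, with 53 lost calls, most often with a pseudocount of 20. Some genes whose class difference was not called changed sign. Without the lumbar/sacral libraries *Erbb4* was at -0.036, *Zfhx4* at -1.24, *Hs6st2* at -0.35, *Dach1* at 0.36, *Galnt13* at 0.59 and *Slc5a7* at 0.040. Without V8 *Nr4a1* was at -0.11, *Zfhx4* at -0.45 and *Sst* at -0.14. With equal cluster weights *Nr4a1* was at -0.23, *Zfhx4* at -0.062 and *Galnt13* at 0.14, with pools as replicates *Dach1* at 0.072 and *Galnt13* at 0.45, and with a pseudocount of 1 *Zfhx4* at -0.092. With a replicate or the male rostral libraries left out, *Nr4a1* ran from -0.0082 to 0.21 (-0.0061 without the male rostral libraries), *Jun* from -0.073 to 0.23, *Zfhx4* from -0.0082 to 0.60 and *Galnt13* from -0.20 to 0.0046. The causes were not tested. The 166 skeletal nuclei of cervical replicate 2 were the fewest behind any sum.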
